A study of Mus musculus with 10 samples.

Results

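The p53 target genes described here are 10 genes that the transcription factor p53 is known to activate: Cdkn1a, Ccng1, Mdm2, Phlda3, Zmat3, Sesn2, Trp53inp1, Eda2r, Bax and Bbc3. They were found by gene symbol and not by a threshold on a measured value, and the list was drawn up with earlier results of these data known. Each of the 10 had 1 row among the 32285 genes listed for the E15.5 and E17.5 libraries and 1 row among the 27998 genes listed for E16.5. RNA molecules were counted in single cells of dissociated back skin from mouse embryos, as unique molecular identifiers (UMIs), and a level is given as CPM, the UMIs of a gene per 1000000 UMIs of the same population of cells in that library. At E15.5 and at E16.5 there were 2 control libraries and 2 of the genotype MOFfl/fl/K14Cre (MOF cKO), and at E17.5 there was 1 control library and 1 of the genotype QPCfl/fl/K14Cre (QPC cKO). MOF, encoded by Kat8, is a histone acetyltransferase, and QPC, encoded by Uqcrq, is a subunit of respiratory complex III.

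The labels name the controls only as Control, and the study describes its controls as littermates of wild-type or heterozygous genotype. K14Cre is driven by a keratin promoter that is active in skin epithelium, so fibroblasts of a cKO library carry the floxed alleles in cells that do not use this promoter. The study described the E15.5 MOF cKO embryo that the labels number 6 as mosaic, from how its cells clustered in these same data and from staining for the acetylated histone in its epithelium. For the embryo numbered 5 it reported consistently reduced staining in epithelial cells and described a homogeneous MOF cKO. The E15.5 epithelial results are given with and without replicate 6 where it changed a call or a count, and leaving it out is not a choice independent of its RNA. The labels number the E15.5 replicates 2 and 3 (control) and 5 and 6 (MOF cKO). The E16.5 libraries were made with an earlier chemistry than the others, so stage and chemistry cannot be told apart.

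The libraries held 13609345 to 203392303 UMIs and kept 716 to 10653 cells, with a median of 9600 to 22340 UMIs per kept cell. Kept cells had over 1000 and under 6000 genes and under 10% of UMIs from mitochondrial genes. Basal cells had at least 10 UMIs of Krt5 and Krt14 and under 10 of Krt1 and Krt10, suprabasal cells had at least 20 UMIs of Krt1 and Krt10, and fibroblast cells had at least 30 UMIs of Col1a1 and Col3a1 and under 10 of Krt5 and Krt14. At E15.5 the controls held 2470 and 2584 basal cells and MOF cKO replicates 5 and 6 held 901 and 1445. The E16.5 controls held 239 and 464 but the E16.5 MOF cKO libraries held 21 and 22, so the E16.5 MOF cKO levels in the epithelium rest on few cells. Any pair of libraries shared at most 36 cell barcodes, 0.354% of the smaller library.

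In basal cells, 7 further keratinocyte markers (Krt15, Trp63, Dsp, Epcam, Cdh1, Col17a1 and Itga6) were all detected in every library. Their summed level in CPM was 4635 and 4411 in the E15.5 controls against 1782 and 3489 in MOF cKO replicates 5 and 6, and 3244 and 4824 against 1325 and 1574 at E16.5. The 5 fibroblast markers (Col1a2, Dcn, Lum, Pdgfra and Col6a1), also all detected in basal cells of every library, summed to 1281 and 1244 against 1723 and 1469 at E15.5 and to 4943 and 1508 against 513 and 794 at E16.5. The 5 immune markers summed to 144 and 30.8 in the E16.5 controls against 139 and 837 in MOF cKO, with Ptprc at 0 in 1 library of each group. Genes of the handling stress response (Fos, Jun, Egr1, Hspa1a, Hspa1b and Dnajb1) summed to 8646 and 8274 in the E15.5 controls against 4244 and 6310, and to 2781 and 1675 against 1474 and 2140 at E16.5. The 4 erythroid markers summed to between 2519 and 33728 and the 4 endothelial markers to between 3.87 and 60.2 over the E15.5 and E16.5 libraries, with Kdr and Esam at 0 in E16.5 MOF cKO replicate 2. Their part in the results below was not tested. Kat8 itself was at 13.02 and 13.7 CPM in the E15.5 control basal cells against 13.4 and 10.3 in MOF cKO, and at 16.4 and 14.9 against 8.31 and 4.51 at E16.5, where MOF cKO held 3 and 2 Kat8 UMIs. In fibroblasts Kat8 was at 9.18 and 9.62 CPM against 6.83 and 5.98 in MOF cKO at E15.5 and at 9.60 and 8.23 against 2.81 and 5.39 at E16.5. It was thus below control in fibroblasts of all 4 MOF cKO libraries, with log2 changes of -0.58 ± 0.12 (adjusted p = 0.19) and -0.95 ± 0.31 (0.14, edgeR) that did not pass, and the part of this in the comparisons with fibroblasts was not tested. These counts come from the 3′ end of the transcript, and where the floxed part lies is not given in the sources used here, so the Kat8 level is no check of the deletion. The groups are those of the labels, and the study's own check was staining, which showed the acetylated histone reduced in MOF cKO epidermis at E15.5 and E16.5.

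The protein p53, encoded by Trp53, is a transcription factor that is kept low in unstressed cells, because Mdm2 marks it for degradation. Damaged DNA, disturbed ribosome production and other stresses free it from Mdm2, and it then binds DNA as a tetramer at a pair of short half-sites and activates genes that stop the cell cycle, repair damage, limit metabolism or start cell death. In skin epithelium p53 shares its DNA element with its relative p63, the factor that defines basal keratinocytes.

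The sequences just before the start sites of the members are shown because the half-site is the feature by which p53 recognises its targets. RefSeq sequence of the mouse genome (GRCm38.p6) was available for 8 of the 10 members, in 11 windows of 250 bases before a start site, and Trp53inp1 and Zmat3 were not matched. The p53 half-site, a pattern of 10 bases that is its own reverse complement, so that a search of 1 strand covers both, was searched without a mismatch. It was found in windows of 4 members, and capitals mark it:
Cdkn1a, chr17:29090729-29090978, plus strand: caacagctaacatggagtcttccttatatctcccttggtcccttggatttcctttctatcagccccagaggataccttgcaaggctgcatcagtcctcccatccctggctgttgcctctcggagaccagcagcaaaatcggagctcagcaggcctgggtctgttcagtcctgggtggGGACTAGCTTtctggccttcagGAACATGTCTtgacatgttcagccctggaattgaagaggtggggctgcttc
Ccng1, chr11:40755287-40755536, minus strand: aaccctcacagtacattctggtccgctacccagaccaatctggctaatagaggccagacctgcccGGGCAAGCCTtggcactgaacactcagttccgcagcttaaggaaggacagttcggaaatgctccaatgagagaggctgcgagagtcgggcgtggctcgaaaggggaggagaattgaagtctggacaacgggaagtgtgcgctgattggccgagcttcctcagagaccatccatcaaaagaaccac
Mdm2, chr10:117710759-117711008, minus strand: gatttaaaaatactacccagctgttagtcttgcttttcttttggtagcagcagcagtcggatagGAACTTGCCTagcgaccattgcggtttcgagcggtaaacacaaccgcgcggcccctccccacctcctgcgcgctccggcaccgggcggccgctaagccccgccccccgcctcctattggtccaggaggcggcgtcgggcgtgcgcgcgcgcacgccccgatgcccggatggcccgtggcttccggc
Bax, chr7:45466899-45467148, minus strand: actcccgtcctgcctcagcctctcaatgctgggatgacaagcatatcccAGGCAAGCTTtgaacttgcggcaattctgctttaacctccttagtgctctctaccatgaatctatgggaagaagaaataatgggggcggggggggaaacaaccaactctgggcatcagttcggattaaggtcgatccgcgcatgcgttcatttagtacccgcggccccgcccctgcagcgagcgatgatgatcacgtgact
The half-sites of Cdkn1a began 73 and 51 bases before the start site of the window shown, with 12 bases between them. This was the only member window with a pair of half-sites no more than 13 bases apart. The 10 bases directly after its second half-site match the pattern in all but their first base. They were left unmarked because no mismatch was allowed. Another Cdkn1a window, before a different start site (chr17:29093519-29093768, plus strand), held 0 half-sites. Those of Ccng1, Mdm2 and Bax began 185, 186 and 201 bases before the start site. Of all 32851 windows of the same length, 7.13% held a half-site and 0.0639%, or 21 windows, held such a pair. A match describes the letters only, and members without one in these 250 bases can have a p53 site elsewhere.

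The first question was how the members stood in the epithelium of embryos bred to lack MOF. In basal cells, 8 of the 10 members at E15.5 and 9 at E16.5 had both MOF cKO libraries above both controls, as had 17.7% and 10.6% of all genes. The edgeR test passed 0 of 10 members at E15.5, with 0% of genes. At E16.5 it passed 2 of 9, Ccng1 and Trp53inp1, with 0.243% of genes at a higher level. The 10 members together made up 339.6 and 324 CPM in the E15.5 control basal cells (95% Poisson interval 334 to 345 in replicate 2). They made up 973 in MOF cKO replicate 5 and 389 in replicate 6. At E16.5 they made up 372 and 289 in control and 1258 and 931 in MOF cKO. Both MOF cKO libraries lay above both controls at each stage, but at E15.5 the gap between the MOF cKO libraries was larger than that between replicate 6 and the controls.

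**Figure D1:**
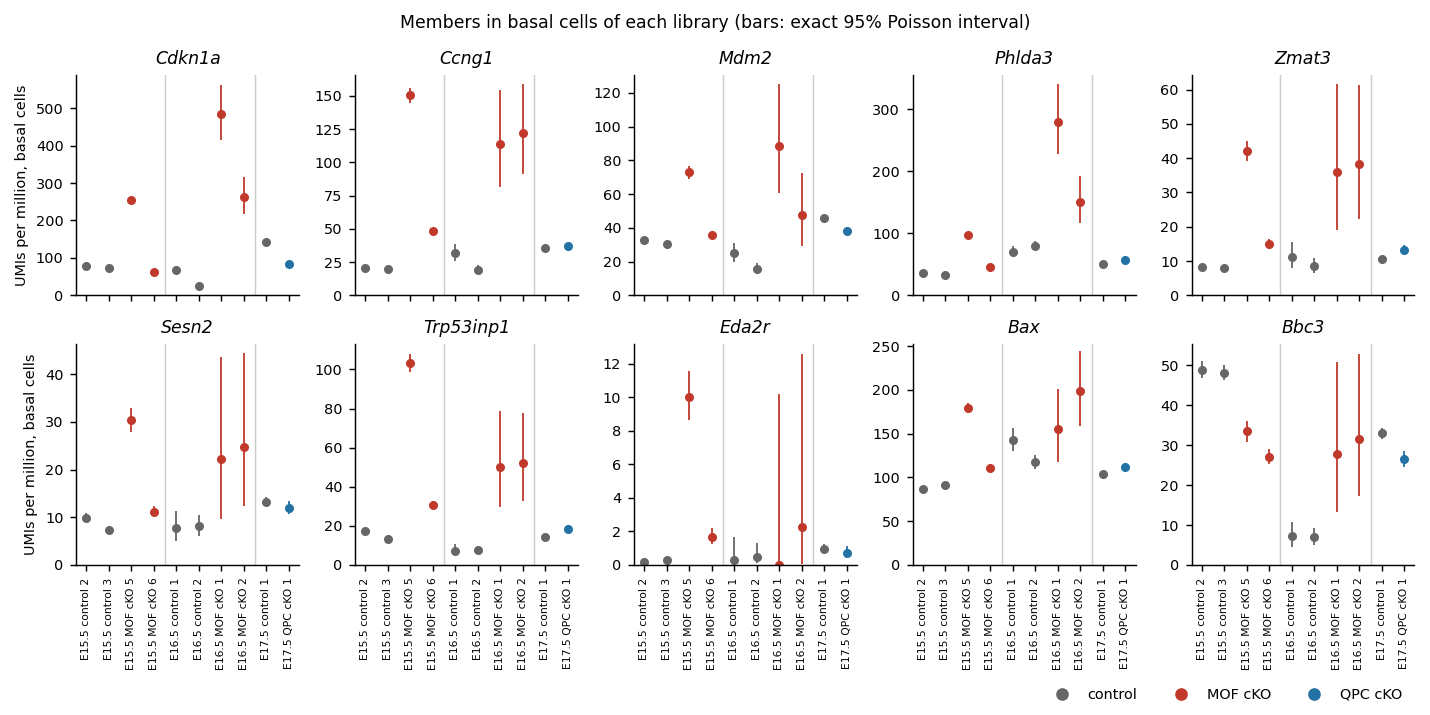
Level of each of the 10 members in basal cells, in CPM (vertical axes start at 0 and differ between genes), by library. Points are single libraries (grey control, red MOF cKO, blue QPC cKO) and bars are exact 95% Poisson intervals. Ccng1 was at 150.3 in E15.5 MOF cKO replicate 5, 48.3 in replicate 6 and 20.5 and 19.8 in the controls.

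Among the members that arrest the cell cycle or feed back on p53, Cdkn1a encodes p21, the inhibitor of cyclin-dependent kinases. In basal cells Cdkn1a was at 78.9 and 72.8 CPM in the E15.5 controls, 255 in MOF cKO replicate 5 and 63.0 in replicate 6. At E16.5 it was at 68.2 and 25.2 in control and 485 and 264 in MOF cKO. The groups overlapped at E15.5, where replicate 6 was the lowest library, and did not overlap at E16.5. The log2 change between MOF cKO and control, scaled by edgeR, was 1.31 ± 0.74 (SE, 2 against 2 libraries) at E15.5 and 3.59 ± 0.54 at E16.5, with adjusted p-values of 0.51 and 0.078 in edgeR's quasi-likelihood test. Without replicate 6 the E15.5 change of Cdkn1a was 2.04 ± 0.06 (adjusted p = 4e-05, edgeR), and without replicate 5 it was -0.27 ± 0.07 (0.076), the lone MOF cKO library being assumed to vary as the controls did.

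Ccng1 encodes cyclin G1, an atypical cyclin that acts with a phosphatase on Mdm2. It was at 20.5 and 19.8 CPM in the E15.5 control basal cells, 150.3 in MOF cKO replicate 5 and 48.3 in replicate 6, and at 31.9 and 19.0 against 114 and 122 at E16.5. All MOF cKO libraries lay above all controls. The change was 2.53 ± 0.66 on the log2 scale at E15.5 (adjusted p = 0.51, edgeR) and 2.75 ± 0.33 at E16.5 (0.047), where Ccng1 rose.

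Mdm2, the ubiquitin ligase that holds p53 down, was at 32.8 and 30.4 CPM in the E15.5 control basal cells, 72.9 in MOF cKO replicate 5 and 35.9 in replicate 6. At E16.5 it was at 25.03 and 15.8 in control and 88.7 and 47.4 in MOF cKO, from 32 and 21 UMIs. The groups did not overlap at either stage, although replicate 6 stood only just above the controls. The log2 changes were 0.99 ± 0.45 (adjusted p = 0.51) and 2.27 ± 0.43 (0.11, edgeR).

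Phlda3, which encodes a small lipid-binding protein that restrains Akt, was at 36.6 and 32.9 CPM against 96.9 and 45.9 at E15.5 and at 70.6 and 79.9 against 279.9 and 151 at E16.5. Zmat3, an RNA-binding zinc finger gene, was at 8.15 and 7.98 against 42.1 and 15.01 at E15.5 and at 11.3 and 8.55 against 36.0 and 38.3 at E16.5, the last from 13 and 17 UMIs. Sesn2, which encodes the stress-induced sestrin that restrains mTORC1, was at 9.87 and 7.24 against 30.3 and 11.1 at E15.5 and at 7.75 and 8.11 against 22.2 and 24.8 at E16.5, from 8 and 11 UMIs. In all 3 genes both MOF cKO libraries were above both controls at each stage, with replicate 6 the lower at E15.5. The log2 changes at E15.5 and E16.5 were 1.25 ± 0.47 and 2.02 ± 0.41 for Phlda3, 2.05 ± 0.61 and 2.43 ± 0.38 for Zmat3, and 1.497 ± 0.61 and 2.05 ± 0.45 for Sesn2. None of these passed the test, with an adjusted p of 0.51 for each at the earlier stage and of 0.11, 0.086 and 0.12 at the later (edgeR).

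Among the members that promote cell death, Trp53inp1 encodes a stress-induced p53 partner of the nucleus and of autophagy. It was at 17.1 and 13.1 CPM in the E15.5 control basal cells, 103 in MOF cKO replicate 5 and 30.7 in replicate 6. At E16.5 it was at 7.15 and 7.37 in control and 49.9 and 51.9 in MOF cKO, from 18 and 23 UMIs. The groups did not overlap at either stage. The log2 change of Trp53inp1 was 2.38 ± 0.71 at E15.5 (adjusted p = 0.51, edgeR) and 3.29 ± 0.38 at E16.5 (0.047), where it rose.

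Eda2r, the receptor of the ectodysplasin isoform A2 in the tumour necrosis factor receptor family, was barely counted in control. In E15.5 basal cells the controls had 6 and 15 UMIs of it, against 187 in MOF cKO replicate 5 and 50 in replicate 6, or 0.143, 0.298, 10.0 and 1.68 CPM. The intervals of the MOF cKO libraries, 8.63 to 11.6 and 1.24 to 2.21, lay above those of the controls, of which the higher ended at 0.491. The log2 change was 4.92 ± 1.18 (adjusted p = 0.51, edgeR). At E16.5 Eda2r had 1 and 3 UMIs in control and 0 and 1 in MOF cKO and was not tested. The exact intervals of these MOF cKO libraries, 0 to 10.2 and 0.0571 to 12.6 CPM, hold the E15.5 levels of both groups, so a difference of that size was not detectable at this depth.

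Bax and Bbc3 act at the mitochondrion, Bax as the protein that permeabilises its outer membrane and Bbc3 (Puma) as a BH3-only activator of it. Bax was at 86.7 and 90.8 CPM against 179 and 111 at E15.5 and at 143 and 117 against 155 and 198 at E16.5. It was above control in all 4 MOF cKO libraries, by less than the other members at E16.5, where the interval of MOF cKO replicate 1 (117 to 202) overlapped that of control replicate 1 (131 to 156), with log2 changes of 0.90 ± 0.35 (adjusted p = 0.51) and 0.96 ± 0.28 (0.17, edgeR). Bbc3 was the exception at E15.5, at 48.9 and 48.2 in control and 33.5 and 27.1 in MOF cKO, both MOF cKO libraries lying below both controls, as for 32.9% of all genes. At E16.5 it was at 7.15 and 6.93 in control and 27.7 and 31.6 in MOF cKO, from 10 and 14 UMIs, both above. The log2 changes of Bbc3 were -0.51 ± 0.23 (0.51) and 2.57 ± 0.42 (0.088), and they differed between the stages by 3.01 ± 0.45 (adjusted p = 0.18, edgeR interaction of stage and genotype). The control level of Bbc3 was also lower at E16.5 than at E15.5, stages that were counted with different chemistries.

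Over the members, 0 of 10 passed the edgeR test in E15.5 basal cells, as did 0% of all 14364 genes tested, and 5 of the 10 had an unadjusted p under 0.05, all higher, as did 9.11% of all genes in either direction. At E16.5, Ccng1 and Trp53inp1 passed, 2 of 9 tested, where 0.243% of the 9454 genes tested passed with a higher level, and all 9 had an unadjusted p under 0.05, as had 20.3% of genes. Neither Ccng1 nor Trp53inp1 passed with library sizes alone or with a mitochondrial limit of 5%. Leaving out either E16.5 MOF cKO library left 0 members and 0% of genes past the threshold. Without control replicate 1 there were 3 members, with 0.809% of genes higher, and without control replicate 2 there were 7, with 4.62%. In the fit of both stages, with stage as a term, 0 of 10 members passed and 0% of 13189 genes did, with 9 members and 14.8% of genes at an unadjusted p under 0.05, the adjusted p of Ccng1 being 0.074 and that of Zmat3 and Trp53inp1 0.10. Without the mosaic replicate 6, 9 of 10 members passed with a higher level at E15.5, where 22.6% of all genes did, and 9 of 10 passed in the fit of both stages, where 2.89% did. Bbc3 was the member that did not pass as higher in both of these. The E15.5 log2 changes without replicate 6 were 3.19 for Ccng1, 1.501 for Mdm2, 1.78 for Phlda3, 2.68 for Zmat3, 2.13 for Sesn2, 3.07 for Trp53inp1, 5.74 for Eda2r, 1.31 for Bax and -0.24 for Bbc3, with a median over the 10 members of 2.09. Without replicate 5 they were 1.26 for Ccng1, 0.18 for Mdm2, 0.40 for Phlda3, 0.89 for Zmat3, 0.38 for Sesn2, 1.02 for Trp53inp1, 2.87 for Eda2r, 0.32 for Bax and -0.84 for Bbc3. The interaction of stage and genotype in basal cells called 0 of 10 members and 0.0152% of all genes, while 2 members and 11.5% of genes had an unadjusted p under 0.05 there and DESeq2 called 1 member and 1.26% of genes with the higher log2 change at E16.5.

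DESeq2 on the same sums called 4 of 10 members higher at E15.5 (Ccng1, Zmat3, Trp53inp1 and Eda2r), where it called 0.473% of all genes higher. It called 8 of 9 at E16.5, all but Bax, where the share was 2.7%, and 8 of 10 over both stages, all but Bbc3 and Eda2r, the latter with no adjusted p, where the share was 2.09%. Counted by whether the libraries overlapped, 8 of 10 members had both MOF cKO libraries above both controls at E15.5 (17.7% of all genes), 9 of 10 at E16.5 (10.6%) and 7 of 10 at both stages (3.59%). The 7 were Mdm2, Ccng1, Trp53inp1, Phlda3, Zmat3, Sesn2 and Bax. The median log2 change of the members was 1.41 at E15.5 and 2.43 at E16.5, against -0.01 and -0.11 over all genes tested. With library sizes alone in place of TMM scaling, the median of all genes moved to -0.15 and -0.63 and that of the members to 1.17 and 1.91.

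**Figure D2:**
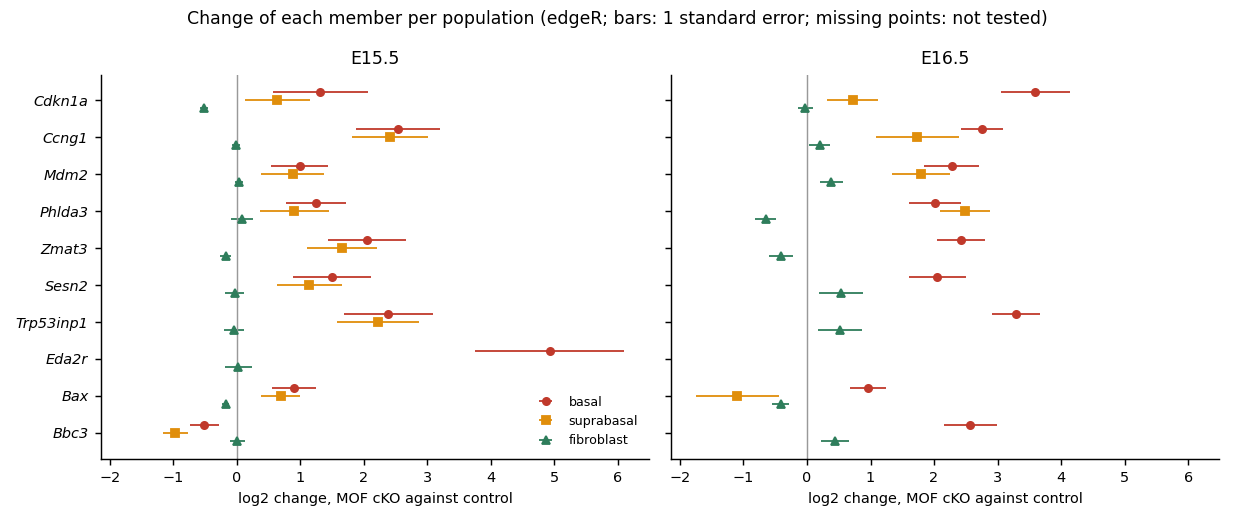
Log2 change between MOF cKO and control of each member at E15.5 (left) and E16.5 (right), from edgeR, in basal (red circles), suprabasal (orange squares) and fibroblast cells (green triangles). Bars are 1 standard error and a missing point was not tested. In basal cells 9 of 10 members had a positive change at E15.5, as had 9 of 9 at E16.5, and the fibroblast points lay between -0.65 and 0.53.

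In suprabasal cells, the differentiating layers above the basal cells, the E15.5 MOF cKO embryos also differed from each other. The summed level of the members was 522 and 575 CPM in the E15.5 controls, 1191 in MOF cKO replicate 5 and 514 in replicate 6. Replicate 6 thus lay below both controls, unlike in basal cells, and replicate 5 was above them by more than their spread. Ccng1 was at 16.2 and 21.1 in control against 133 and 45.4, Trp53inp1 at 9.25 and 8.23 against 54.2 and 16.96, and Zmat3 at 9.25 and 7.86 against 34.0 and 13.7, all without overlap. Cdkn1a, Mdm2 and Phlda3 overlapped, with 262 and 306 against 562 and 218 for Cdkn1a. Bbc3 was below control here too, at 44.6 and 41.6 against 19.5 and 21.5. In the same cells all 5 fibroblast markers had a positive log2 change, from 0.68 for Col6a1 to 1.62 for Col1a2. That of the myeloid gene Lyz2, named after its values were seen, was 6.17. None of these genes passed the edgeR test, and their part in the result was not tested.

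The edgeR test called 0 of 9 members tested in E15.5 suprabasal cells and 0% of 10819 genes, while 4 members had an unadjusted p under 0.05, 3 of them higher, as had 7.73% of genes, and DESeq2 called 2 higher, with 0.351% of genes. Without replicate 6 all 10 members passed, 9 higher, where 9.06% of genes were, and Bbc3 lower, where 6.43% were. In 6 of 10 members both MOF cKO libraries lay above both controls, as in 16.7% of all genes. At E16.5 the MOF cKO libraries held 9 and 13 suprabasal cells against 31 and 66, with a median of 0.0811% and 0.0693% of UMIs from mitochondrial genes against 3.44% and 2.02% in control, and the part of this in the result was not tested. There Phlda3 was at 96.5 and 92.0 in control against 399.7 and 343 in MOF cKO (log2 change 2.48 ± 0.39, adjusted p = 0.022, edgeR), the 1 member of 5 tested that rose, where 3.35% of genes did. This call was lost with the replicate number as a block. It was lost without MOF cKO replicate 1, which left 0 members. In the same cells the 5 immune markers summed to 14.1 and 20.6 CPM in control against 67.5 and 89.1 in MOF cKO, the fibroblast markers to 699.5 and 625 against 358 and 391, the keratinocyte markers to 3614 and 4660 against 737 and 1943, and the handling stress genes to 1508 and 1027 against 1298 and 1614. Of the keratinocyte markers only Krt15 (log2 change -2.72) and Epcam (-0.47) were lower in the edgeR fit. Itga6 (0.90), Cdh1 (0.61), Dsp (0.61), Col17a1 (0.22) and Trp63 (0.13) were higher, and none of these markers passed. Among these lists Lyz2, a lysozyme of myeloid cells (log2 change 3.001, adjusted p = 0.031), and Hspa1b, a heat shock protein (3.03, 0.031), passed the same edgeR test and were named after their values were seen. The part of these genes in the Phlda3 result was not tested. Bax had 1 and 16 UMIs in MOF cKO, or 5.19 and 54.8 CPM against 107 and 87.2 in control, lower in both libraries (log2 change -1.10 ± 0.65, adjusted p = 0.33).

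In E16.5 suprabasal cells, 3 members (Mdm2, Ccng1 and Phlda3) lay above both controls in both MOF cKO libraries, as did 16.1% of genes. Of the members 1, Ccng1, did so at both stages, as did 4.1% of genes. At E16.5 Ccng1 had 17 and 8 UMIs in control against 11 and 12 in MOF cKO. Mdm2 had 8 and 11 against 6 and 12. For both genes the counting intervals of both MOF cKO libraries overlapped that of control replicate 1, which for Ccng1 was 19.9 to 54.7 CPM. These counts of members without the cells past the collagen limit are not given here. In the fit of both stages 0 of 9 members passed, as did 0.15% of genes, while DESeq2 called 2 higher, with 1.76% of genes, and the unadjusted p was under 0.05 for 7, with 13.01% of genes. In the interaction of stage and genotype 0 of 9 members passed, as did 0.0401% of genes, while DESeq2 called 0, with 1.26% of genes, and the unadjusted p was under 0.05 for 2, with 12.7% of genes.

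In fibroblasts of the same libraries the summed level of the members was below control at both stages, and edgeR with its filter called no member. The members summed to 295 and 295 CPM in the E15.5 controls and 253 and 272 in MOF cKO, and to 379 and 334 against 280.0 and 287 at E16.5. Cdkn1a was at 86.5 and 81.4 against 59.1 and 59.9 at E15.5 and at 77.6 and 69.7 against 65.6 and 66.5 at E16.5. Its log2 change at E15.5 was -0.52 ± 0.06, which did not pass over 16268 genes (adjusted p = 0.18, edgeR). Bax was at 105 and 111 against 94.1 and 100.1 at E15.5 and at 148 and 139 against 100.3 and 96.9 at E16.5, also below. Ccng1, which rose in E16.5 basal cells, was at 22.2 and 21.4 against 21.2 and 22.6 in E15.5 fibroblasts, with a log2 change of -0.01 ± 0.06.

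The edgeR test called 0 of 10 members in fibroblasts at E15.5 (0% of all genes), 0 of 9 at E16.5 (4.64%), 0 of 10 over both stages (0%) and 0 of 10 in the interaction of stage and genotype (1.26%). Of the members 2, 2 and 3 had an unadjusted p under 0.05 at E15.5, at E16.5 and over both stages, all lower, which is near the shares of all genes in either direction, 15.6%, 25.2% and 22.5%. DESeq2 called 1 member lower at E15.5 (1.59% of genes), 0 at E16.5 (7.56% in either direction), 1 lower over both stages (4.92%) and 1 with the higher log2 change at E16.5 in the interaction (2.69%). Both MOF cKO libraries lay above both controls for 1 of 10 members at E15.5 (26.3% of genes), for 3 of 10 at E16.5 (18.1%) and for 0 of 10 at both stages (9.35%), while 3 (Cdkn1a, Zmat3 and Bax) lay below at both, as did 11% of genes.

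Whether the change in the epithelium differed from that in fibroblasts was tested within libraries. The change in basal cells exceeded that in fibroblasts by 2.41 ± 0.37 log2 units for Ccng1, 2.32 ± 0.40 for Zmat3, 1.20 ± 0.23 for Bax and 2.52 ± 0.59 for Cdkn1a, with adjusted p-values of 0.14, 0.14, 0.14 and 0.18 (edgeR). None of the 10 members passed, as did 0% of 14734 genes, and 9 of the 10 had an unadjusted p under 0.05, all with the larger change in basal cells, as had 15.1% of genes in either direction. DESeq2 called 5 members in this test, with 2.2% of genes in that direction, and edgeR called 9 without the mosaic replicate 6, with 4.1%. The excess was then 2.85 for Ccng1, 2.84 for Zmat3, 1.39 for Bax and 3.13 for Cdkn1a. Between suprabasal cells and fibroblasts the change of Ccng1 differed by 1.99 ± 0.40 (adjusted p = 0.02, edgeR), the 1 of 9 members tested that passed, where 0.608% of genes passed in that direction. That call was lost without E16.5 MOF cKO replicate 1, which left 0 members, while without E15.5 MOF cKO replicate 6 there were 7, with 4.81% of genes.

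**Figure D3:**
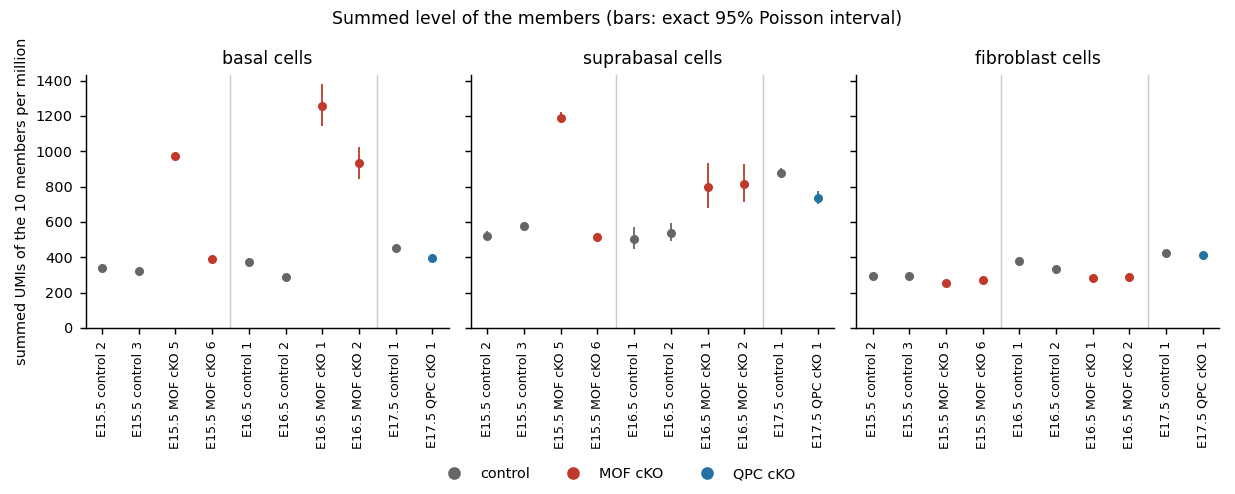
Summed level of the 10 members in CPM in basal (left), suprabasal (middle) and fibroblast cells (right) of each library. Points are libraries (grey control, red MOF cKO, blue QPC cKO) and bars are exact 95% Poisson intervals. Basal cells of E15.5 MOF cKO replicate 5 were at 973 and of replicate 6 at 389, and fibroblasts of all MOF cKO libraries lay between 253 and 287.

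How evenly the UMIs of the members were spread over the cells of a library was described after each cell had been thinned to 5000 UMIs, so that depth was equal. In the E15.5 controls, basal cells held a mean of 1.75 and 1.65 UMIs of the 10 members, and 4.06% (Wilson interval 3.35 to 4.92) and 3.57% (2.92 to 4.36) of cells held 5 or more. In MOF cKO replicate 5 the mean was 4.95 and 44.2% of cells (40.9 to 47.4) held 5 or more. Replicate 6 was different in shape. Its mean was 1.92, close to control, and the share of its basal cells with none of these UMIs was 23.1% (20.998 to 25.4), against 18.8% and 21.9% in the controls and 6.50% in replicate 5. Yet 8.91% of its cells (7.54 to 10.5) held 5 or more, and 3.62% (2.77 to 4.71) held UMIs of at least 5 different members, against 0.528% and 0.465% in the controls and 23.2% in replicate 5.

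The variance of the count divided by its mean was 1.15 and 1.22 in the E15.5 control basal cells, 3.59 in replicate 5 and 2.40 in replicate 6, so that the cells of replicate 6 were about as low as control in the middle and spread out at the top. The fibroblasts of these 2 libraries, measured in the same way, held 5 or more member UMIs in 2.33% and 2.72% of cells, against 3.67% and 3.79% in control, and had a variance of 1.499 and 1.502 times the mean. At E16.5, 5.29% (3.05 to 9.01) and 1.81% (0.922 to 3.54) of control basal cells held 5 or more, against 13 of 19 cells (68.4%, 46.0 to 84.6) and 4 of 21 cells (19.0%, 7.67 to 40.0) in MOF cKO. Cells under 5000 UMIs were left out, 6 to 9 in each E15.5 library and 1 to 23 in each E16.5 library. Before thinning, the shares with 5 or more were 58.5%, 63.9%, 90.2% and 65.8% at E15.5 in the order control 2 and 3 and MOF cKO 5 and 6, at median depths of 15800 to 19948 UMIs. Intervals cover counting error only, and cells of 1 library are not replicates.

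**Figure D4:**
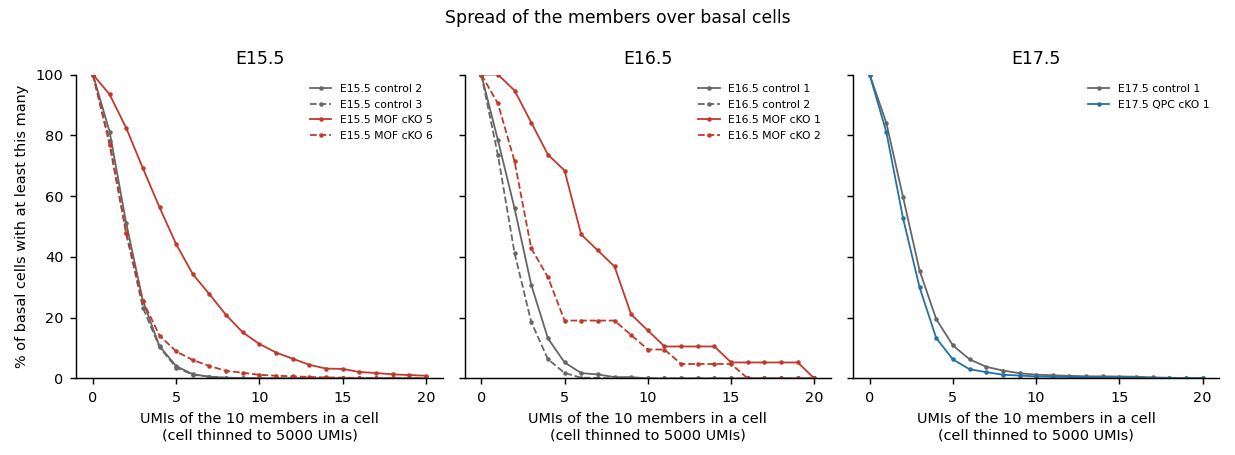
Share of basal cells (vertical axis, %) that held at least a given number of UMIs of the 10 members (horizontal axis) after thinning each cell to 5000 UMIs, at E15.5, E16.5 and E17.5. Each line is 1 library (grey control, red MOF cKO, blue QPC cKO). The line of E15.5 MOF cKO replicate 6 follows the controls at low counts and lies above them at 5 or more (8.91% against 4.06% and 3.57%), and that of replicate 5 lies above throughout.

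The deletion of Uqcrq gave the comparison at E17.5, with 1 library a group and therefore no test. Uqcrq was at 103 CPM in control basal cells and 45.7 in QPC cKO, at 144 and 27.8 in suprabasal cells, and at 69.4 and 122 in fibroblasts. In basal cells the members summed to 451 in control and 398 in QPC cKO. Cdkn1a was the member furthest from control, at 142 (139 to 145) and 83.4 (80.0 to 87.0) CPM, a ratio of 0.587 (exact interval 0.560 to 0.615). Mdm2 had a ratio of 0.833 (0.775 to 0.895), Bbc3 0.806 (0.739 to 0.878), Trp53inp1 1.28 (1.15 to 1.43) and Zmat3 1.25 (1.10 to 1.43). Ccng1 was at 36.0 and 37.0, a ratio of 1.03 (0.954 to 1.11).

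In E17.5 basal cells 1 of 10 members, Cdkn1a, was lower in QPC cKO by at least 1.5-fold, as were 22.5% of the 14372 genes with at least 50 UMIs over both libraries. The members' median ratio was 0.966, against 0.996 over these genes. Of the control basal cells, however, 1270 of 2807 also passed the collagen limit of fibroblasts, against 98 of 1066 in QPC cKO. Over all basal cells the fibroblast markers summed to 12132 CPM in control and 2484 in QPC cKO, and their part in the ratios was not tested beyond leaving those cells out. The immune markers summed to 211 CPM against 63.1, the endothelial markers to 15.2 against 4.0004, the erythroid markers to 43.4 against 599, the keratinocyte markers to 2822 against 4377 and the handling stress genes to 3786 against 2853, and their part was not tested. Without those cells, a choice made after the data were seen, Cdkn1a had a ratio of 0.558 (0.530 to 0.588), Trp53inp1 0.970 (0.861 to 1.09), Zmat3 0.994 (0.861 to 1.15), Bbc3 0.705 (0.639 to 0.777) and Sesn2 0.711 (0.617 to 0.817). Then 1 of 9 members was lower by 1.5-fold, against 13.6% of genes, and the higher levels of Trp53inp1 and Zmat3 were no longer seen.

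In E17.5 suprabasal cells the members summed to 878 and 738 CPM. Bbc3 was at 36.9 and 19.2, a ratio of 0.519 (0.359 to 0.734), Sesn2 at 29.7 and 18.7 (0.629, 0.430 to 0.900) and Zmat3 at 22.1 and 14.4 (0.651, 0.420 to 0.982). These were the 3 of 9 members that were lower by 1.5-fold, where 8.68% of genes were, and it was 3 of 9 against 9.15% without the cells past the collagen limit. The count fell to 1 with a mitochondrial limit of 5% and to 2 with cell limits scaled to depth. The shares of all genes under those 2 settings are not given here. In QPC cKO the levels of Bbc3, Sesn2 and Zmat3 rest on 40, 39 and 30 UMIs from 72 cells. The median ratio of the members was 0.709, against 0.974 over all genes. In the same cells the fibroblast marker Col1a2 was at 255 CPM in control and 64.6 in QPC cKO, while Pdgfra and Col6a1 were higher in QPC cKO. The handling stress gene Fos was at 1669 and 771, while Hspa1b was higher in QPC cKO. These genes were named after their values were seen, and their part in the ratios was not tested. In fibroblasts Cdkn1a was at 135 and 114, Phlda3 at 41.5 and 55.1 (1.33, 1.25 to 1.41) and Eda2r at 1.31 and 0.661 (0.506, 0.327 to 0.782), the last the 1 of 10 members that was lower by 1.5-fold, against 6.71% of genes. No member was higher by 1.5-fold in any of the 3 populations. The share of all genes that was higher by 1.5-fold is not given here, so nothing is drawn from that count. Such a difference between 2 libraries has no replicate check. In the same fibroblasts Fos was at 1744 CPM in control and 2997 in QPC cKO, and the other handling stress genes were also higher in QPC cKO. The cell cycle gene Top2a was at 140 and 287. Fos and Top2a were named after their values were seen, and the part of these genes was not tested.

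**Figure D5:**
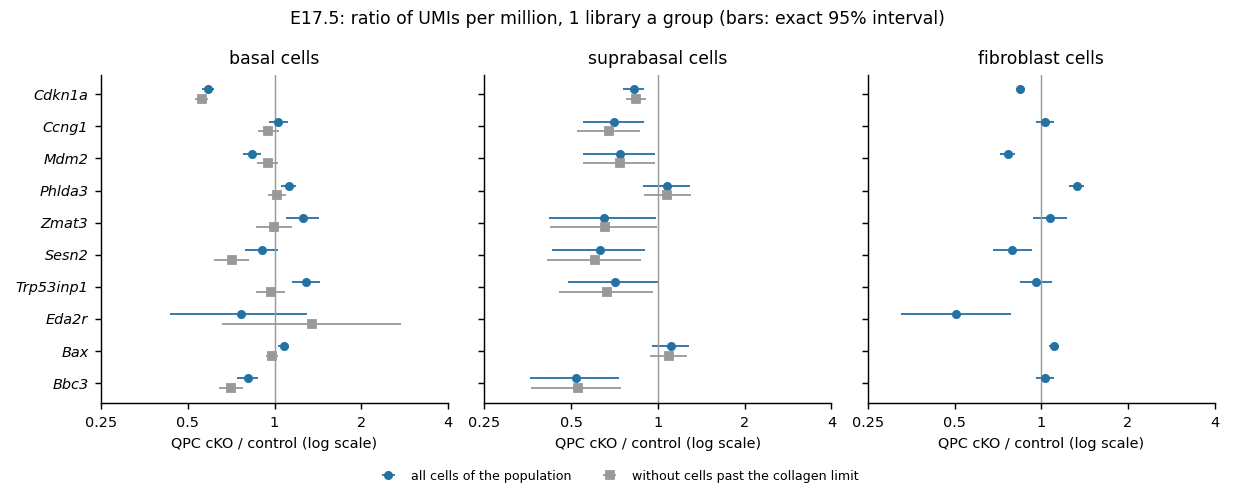
Ratio of the level in QPC cKO to that in control (horizontal log axis) for each member at E17.5 in basal, suprabasal and fibroblast cells. Blue circles are all cells of the population, grey squares leave out cells past the collagen limit, and bars are exact 95% intervals of counting error. Cdkn1a in basal cells was at 0.587 and at 0.558 without those cells.

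In the 5 control libraries the members also differed between populations. Cdkn1a was higher in suprabasal than in basal cells of every control library, at 262 against 78.9, 306 against 72.8, 199 against 68.2, 299 against 25.2 and 467 against 142 CPM. The log2 difference was 2.24 ± 0.24 (adjusted p = 5.2e-05, edgeR, library as a block). Phlda3 (0.56 ± 0.13, adjusted p = 0.0058), Zmat3 (0.60 ± 0.20, 0.031) and Sesn2 (0.69 ± 0.26, 0.049) were also called higher, so that 4 of 9 members tested were higher in suprabasal cells, where 19.6% of all genes were. Fibroblasts against basal cells gave 3 of 9 members called lower, Trp53inp1 (-1.56 ± 0.28, 0.00084), Sesn2 (-1.35 ± 0.23, 0.00068) and Phlda3 (-0.40 ± 0.12, 0.016), where 24.6% of genes were lower. The count of suprabasal calls moved to 2 without the E17.5 control, without either E16.5 control, and with library sizes alone.

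Upstream of the members, Trp53 mRNA was at 194 and 183 CPM in the E15.5 control basal cells against 364 and 247 in MOF cKO, and at 245 and 261 against 310.4 and 289 at E16.5. In basal cells all 4 MOF cKO libraries lay above the controls of their stage. At E16.5 the counting intervals overlapped, at 256 to 373 and 241 to 343 in MOF cKO against 228 to 262 and 248 to 273 in control. At E15.5 both MOF cKO libraries also lay above both controls in suprabasal cells, at 136 and 149 CPM against 119 and 105. The same held in E15.5 fibroblasts, at 109 and 118 against 96.7 and 101. At E16.5 both MOF cKO libraries lay below both controls in these 2 populations. They were at 36.3 and 103 CPM against 135 and 121 in suprabasal cells, from 7 and 30 UMIs, and at 115 and 103 against 131 and 118 in fibroblasts. The log2 change of Trp53 in basal cells over both stages was 0.78 ± 0.22 (adjusted p = 0.23, edgeR) and it was not called. Of the 15 regulators of p53 tested (Mdm4, the damage kinases and others of a list of 16), 0 passed in basal cells at either stage or over both (edgeR). Over both stages 3 had an unadjusted p under 0.05, near the share of 14.8% of all genes, and the median log2 change was -0.04. In 1 of the 15, Trp53, all MOF cKO libraries were above control, as in 3.59% of all genes. In 5, among them Trp63 and Chek2, named after their values were seen, they were below, as in 20.9% of all genes.

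Other known p53 targets were listed by role and counted in basal cells with edgeR, and DESeq2 was read for the 10 members only. Of 10 targets in cell death, 0 passed over both stages, 6 had an unadjusted p under 0.05, 9 had a positive log2 change and the median was 0.72. In 4 of them (Fas, Tnfrsf10b, Aen and Apaf1, named after their values were seen) the MOF cKO libraries lay above control at both stages, as did 3.59% of all genes, and 14.8% of all genes had an unadjusted p under 0.05 over both stages. The death receptor Fas was at 2.36 and 1.83 CPM against 11.7 and 3.48 at E15.5 and at 2.68 and 1.62 against 8.31 and 9.02 at E16.5, again with replicate 6 much lower than replicate 5. Of 12 targets in metabolism, redox balance, secreted factors and other roles, Epha2 among them, 0 passed over both stages. Of these 12, 5 had an unadjusted p under 0.05 and 8 had a positive change, with a median of 0.67. At E16.5 the receptor tyrosine kinase gene Epha2 passed, at 5.66 and 5.60 in control against 36.0 and 54.1 in MOF cKO (log2 change 3.49 ± 0.41, adjusted p = 0.047, edgeR). Epha2 overlapped between the groups at E15.5, at 13.4 and 12.8 against 24.7 and 12.2.

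Of 8 targets in the cell cycle and checkpoints and of 6 in DNA repair and nucleotide supply, 0 passed over both stages (edgeR), 3 and 1 had an unadjusted p under 0.05, and the medians were 0.74 and 0.09. Of 8 cell cycle genes that p21 is known to lower, 0 passed and 0 had an unadjusted p under 0.05 over both stages. All 8 had both MOF cKO libraries below both controls at E16.5, with a median log2 change of -1.11, while at E15.5 all 8 changes were positive with a median of 0.18. At E16.5 the MOF cKO libraries lay below control for 4867 of the 9454 genes tested. Of 9 genes of the Bcl-2 family and caspases, 0 passed over both stages, 2 had an unadjusted p under 0.05 and the median was -0.14.

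The members were compared with each other and with other genes over the 30 combinations of library and population, as the level on the log2 scale (CPM plus 1) minus the control mean of the same stage and population. The points share libraries, so the correlations are a description. With the mean of the other 9 members, Pearson's r was 0.942 for Trp53inp1, 0.940 for Sesn2, 0.787 for Cdkn1a, 0.772 for Zmat3, 0.768 for Ccng1, 0.699 for Mdm2, 0.613 for Eda2r, 0.435 for Phlda3, 0.420 for Bax and 0.328 for Bbc3. The 2 mitochondrial death genes and Phlda3 thus followed the others least. Among 5761 genes with a mean of at least 20 CPM, the 6 most like the mean of the members were Bex1 (r = 0.910), Bloc1s2 (0.906), Palld (0.882), Ccnt1 (0.877), Rpl19 (0.874) and Cdc34 (0.840). Bex1, an X-linked gene of the brain-expressed family, was at 52.6 and 58.4 CPM in the E15.5 control basal cells against 362 and 172 in MOF cKO, and at 45.0 and 46.9 against 399 and 726 at E16.5, where it rose (log2 change 4.10, adjusted p = 0.047, edgeR).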

How the data were processed

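Single cells of dissociated mouse back skin were measured by droplet 3′ RNA sequencing in 10 libraries. The authors deposited counts, the raw number of UMIs per gene and cell, made with Cell Ranger on mm10 per the labels (versions 1.3.1 and 6.1.2 per the submitters' processing notes). Kept cells and the 3 populations were set by the limits given in the report, applied to raw UMIs. No doublet caller was run, and leaving out basal and suprabasal cells with at least 30 UMIs of Col1a1 and Col3a1 was an alternative added after seeing the data. Counts were summed per library and population and given as CPM, per 1000000 UMIs of that population, with exact Poisson intervals at 95%, which cover counting error only.

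Sums were tested with edgeR 4.0.16 (TMM, filterByExpr, quasi-likelihood F-test, R 4.3.3) over all genes, with Benjamini-Hochberg adjustment and a threshold of 0.05. Standard errors were derived from the same fit. Stage was a term in fits of both stages, and library was a block in comparisons of populations within libraries. DESeq2 1.42.0 was an alternative, with library sizes alone, no filter on low counts, a mitochondrial limit of 5%, cell limits per 10000 UMIs, a replicate block and leaving out each library. At E17.5, with 1 library a group, ratios were given without a test for genes with at least 50 UMIs over both libraries, and a fold of 1.5 was counted. The edgeR steps were also run on simulated counts with 200 genes changed by a known fold and the same spread for every gene. Such counts do not hold replicates as unequal as the E15.5 MOF cKO libraries, and the outcome is not given here. Named genes were the 10 members, Kat8, Uqcrq and Trp53, the 6 genes most like the members, and up to 4 genes of each other list that passed the test in basal cells, largest change first. A few genes outside this rule are named as chosen after their values were seen. The members and lists were chosen with earlier results of these data known. The study describes pairs of control and MOF cKO embryos, with controls from the same litters, but which libraries formed a pair is not given in the sources used here, so p-values measure the spread between libraries.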

Additional observations from a re-analysis of the deposited data

Results flagged for a closer look

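For Ccng1 the change in suprabasal cells exceeded that in fibroblasts by 1.99 log2 units (adjusted p = 0.02, edgeR). This call was lost without E16.5 MOF cKO replicate 1. For Bbc3 in basal cells every MOF cKO library lay below control at E15.5 and above it at E16.5, a difference of 3.01 between the stages (adjusted p = 0.18, edgeR). In suprabasal cells Trp53inp1 and Bax were higher in every MOF cKO library at E15.5 and lower in every one at E16.5, with stage differences of -2.20 and -1.77, which did not pass the test. The E16.5 side of Trp53inp1 rests on 1 and 2 UMIs in MOF cKO against 4 and 7 in control, or 5.19 and 6.85 CPM against 8.04 and 8.47, with overlapping counting intervals.

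Within a stage, some members lay above control in the epithelium and below it in fibroblasts in all libraries. These differences were not tested stage by stage. At E15.5 the change in basal cells exceeded that in fibroblasts by 2.22 log2 units for Zmat3 and 1.08 for Bax, and that in suprabasal cells by 1.84 for Zmat3 and 0.863 for Bax. At E16.5 the basal excess was 3.62 for Cdkn1a, 2.67 for Phlda3, 2.84 for Zmat3 and 1.37 for Bax, and the suprabasal excess of Phlda3 was 3.13. Bax at E16.5 was also higher than control in basal and lower in suprabasal cells, 2.05 apart.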

How the results depend on the processing

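The counts of members past the edgeR threshold depended on the fit, and the causes were not tested. The share of all genes called in either direction in the same fit stands in parentheses. In E15.5 basal cells the count moved from 0 to 4 with DESeq2 (0.828%), and on leaving out a library it ranged from 0 to 10, the latter without MOF cKO replicate 6 (49.4%), with 7 without replicate 5 (4.97%). In E16.5 basal cells 2 moved to 0 with library sizes alone and with the mitochondrial limit of 5%, to 8 with DESeq2 (3.16%), without the filter (5.95%) and with cell limits per 10000 UMIs (9.01%), and to 4 without cells past the collagen limit (0.613%), with 0 to 7 on leaving out a library (7.13% at 7). Over both stages 0 moved to 8 with DESeq2 (2.56%), 9 without the filter (2.27%) and 3 with the mitochondrial limit (0.113%), without cells past the collagen limit (0.219%) and with limits per 10000 UMIs (0.329%), and ranged from 0 to 9 on leaving out a library (6.98% at 9). In suprabasal cells the E15.5 count of 0 moved to 2 with DESeq2 (0.453%) and 7 without the filter (2.91%), and from 0 to 10 on leaving out a library. The E16.5 count of 1 fell to 0 on leaving out 1 library, and that over both stages moved from 0 to 2 with DESeq2 (1.95%) and 5 without the filter (3.30%), with 0 to 5 on leaving out a library (4.77% at 5). In fibroblasts 0 moved to 1 with DESeq2 at E15.5 (3.04%) and over both stages (10.4%) and to 1 without the filter at E15.5 (0.954%) and E16.5 (9.39%). The interaction of stage and genotype moved from 0 to 1 with DESeq2 in basal cells (1.56%) and in fibroblasts (6.47%), and to 2 without the filter in basal cells (2.12%).

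The basal difference from fibroblasts moved from 0 to 5 with DESeq2 (2.66%), 6 without the filter (0.382%) and 2 without cells past the collagen limit (0.365%), with 0 to 9 on leaving out a library (9.12% at 9). The suprabasal one moved from 1 to 3 without the filter (1.79%) and 2 without those cells (0.728%), with 0 to 7 on leaving out a library (7.94% at 7). In controls the suprabasal count of 4 moved to 2 with library sizes alone (39.7%), without the filter (23.2%), without cells past the collagen limit (40.2%) and as the lowest on leaving out a library, and the fibroblast count of 3 to 5 with DESeq2 (61.3%). At E17.5 the members past 1.5-fold moved from 1 to 3 and 2 in basal cells with the mitochondrial limit and limits per 10000 UMIs, and from 3 to 1 and 2 in suprabasal cells. The shares of all genes under these E17.5 alternatives are not given here, so these counts are not read further. Of 489 single values of members under an alternative, 105 passed the threshold where the reported fit did not, 8 no longer passed, 374 kept direction and call, and 2 changed sign. These were Cdkn1a in E15.5 basal cells (-0.27 without MOF cKO replicate 5 to 2.04 without replicate 6) and Bbc3 in the basal difference from fibroblasts (-0.085 without E16.5 MOF cKO replicate 2 to 0.71 without E15.5 control replicate 2). Medians of the members moved by more than the spread in 13 of 108 cases and counts of libraries that did not overlap in 2 of 27.

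Replicate numbers were shared by the E16.5 groups, and the deviations of same-numbered libraries did not move together (r = -0.08, -0.03 and -0.04 in basal, suprabasal and fibroblast cells). With the replicate block the count was 3 in E16.5 basal cells (0.550%), 0 in suprabasal cells (2.06%) and 0 in fibroblasts (4.58%), and 0 in each population over both stages. With 21 and 22 basal cells in E16.5 MOF cKO, depth limits the E16.5 values most for Eda2r, at 0 and 1 UMIs there.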
